A study of Mus musculus with 8 samples.

Results

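The growth hormone and IGF1 axis was followed in isolated hepatocytes through 10 genes, namely Ghr, Jak2, Stat5a, Stat5b, Socs2, Igf1, Igfals, Igfbp1, Igfbp2 and Igfbp4. Members were all non-control probes whose accession is that of 1 of these genes, which gave 10 of the 21368 genes named on the array. All 10 passed the filter on dim probes and were among the 11072 genes tested. The comparison asked whether the mRNA of these genes differed between mice without and with the cannabinoid 1 receptor in hepatocytes.

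Growth hormone from the pituitary binds its receptor on the hepatocyte, the receptor activates the kinase JAK2, and JAK2 phosphorylates STAT5A and STAT5B, which enter the nucleus and switch on Igf1, Igfals and Socs2. IGF1 leaves the liver and circulates in complexes with binding proteins and the acid-labile subunit, while SOCS2 feeds back on the receptor. The pulses of growth hormone differ between the sexes, and in the liver of rodents STAT5B carries this difference into the expression of many genes of metabolism and pheromone transport.

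Total RNA of hepatocytes was hybridised to 1-colour Agilent mouse arrays from 4 hCNR1+/+ samples (labelled hCNR1_WT, strain CNRO) and 4 hCNR1-/- samples (labelled hCNR1_cKO, strain CNRO Alb-Cre). Both groups were male littermates on a standard diet at 12 to 14 weeks of age, and the labels name no treatment. The mice descend from crosses of CNR1flox/flox animals with animals that express Cre under the albumin promoter, so the deletion is aimed at hepatocytes, and since the strain label of the hCNR1+/+ samples names no Cre, the effects of Cre and of the deletion cannot be told apart. The labels number the samples but do not say in words that each came from a separate mouse, so the p-values measure the spread between arrays.

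The 8 arrays shared 1 slide, whose row 1 held the hCNR1+/+ and row 2 the hCNR1-/- samples, so the row and the genotype cannot be told apart. In both rows the slide column was the same as the replicate number, so these cannot be told apart either. The brightness of the arrays, as the 75th percentile of the spot intensity, ran from 62.0 to 139 in hCNR1+/+ and from 29.3 to 124 in hCNR1-/-, with replicate 4 the dimmest of each genotype, and between 28.6% and 42.3% of spots were well above background. The only Cnr1 probe was well above background on 0 of 4 and 0 of 4 arrays, so on these arrays the genotypes rest on the labels. The study measured Cnr1 mRNA in isolated hepatocytes of both genotypes by PCR, with a preamplified assay because the level is very low. All 10 hepatocyte markers were tested and 0 of them passed either threshold. All 8 tested Kupffer cell markers were lower in hCNR1-/-, 4 of them by more than 2-fold with p below 0.05, against 3.75% of all tested genes. The summed level of these markers was 82.1 to 163 times the array's 75th percentile in hCNR1+/+ and 50.1 to 68.0 times in hCNR1-/-, Timd4 was above background on 0 arrays, and the macrophage receptor Marco fell by 2.41 on the log2 scale (limma, adjusted p = 0.0336). The part of these cells in the values below was not tested, and in bulk RNA fewer cells of a type and less RNA per cell cannot be told apart.

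Each value below is the log2 intensity of a gene's brightest probe minus the 75th percentile of its array, so a level of 0 equals that percentile and a level of 1 is double it. The thresholds were an adjusted p below 0.05 over all tested genes and a fold change above 2 with p below 0.05, the numbers the study names, with the p taken here as unadjusted.

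Of the 10 axis genes, 6 were lower and 4 were higher in hCNR1-/-, and 0 of 10 had groups that did not overlap, against 17.8% of all tested genes. At an adjusted p below 0.05 limma called 0 of 10 members, against 4.24% of all tested genes. At an unadjusted p below 0.05 it called 2 of 10, Jak2 and Socs2, against 21.6% of all tested genes. At a fold change above 2 with p below 0.05 it called 1 member higher, Jak2, against 4.78% of all tested genes called higher, and 0 lower, against 3.75%. The median log2 fold change was -0.11 over the members and 0.08 over all tested genes.

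**Figure D1:**
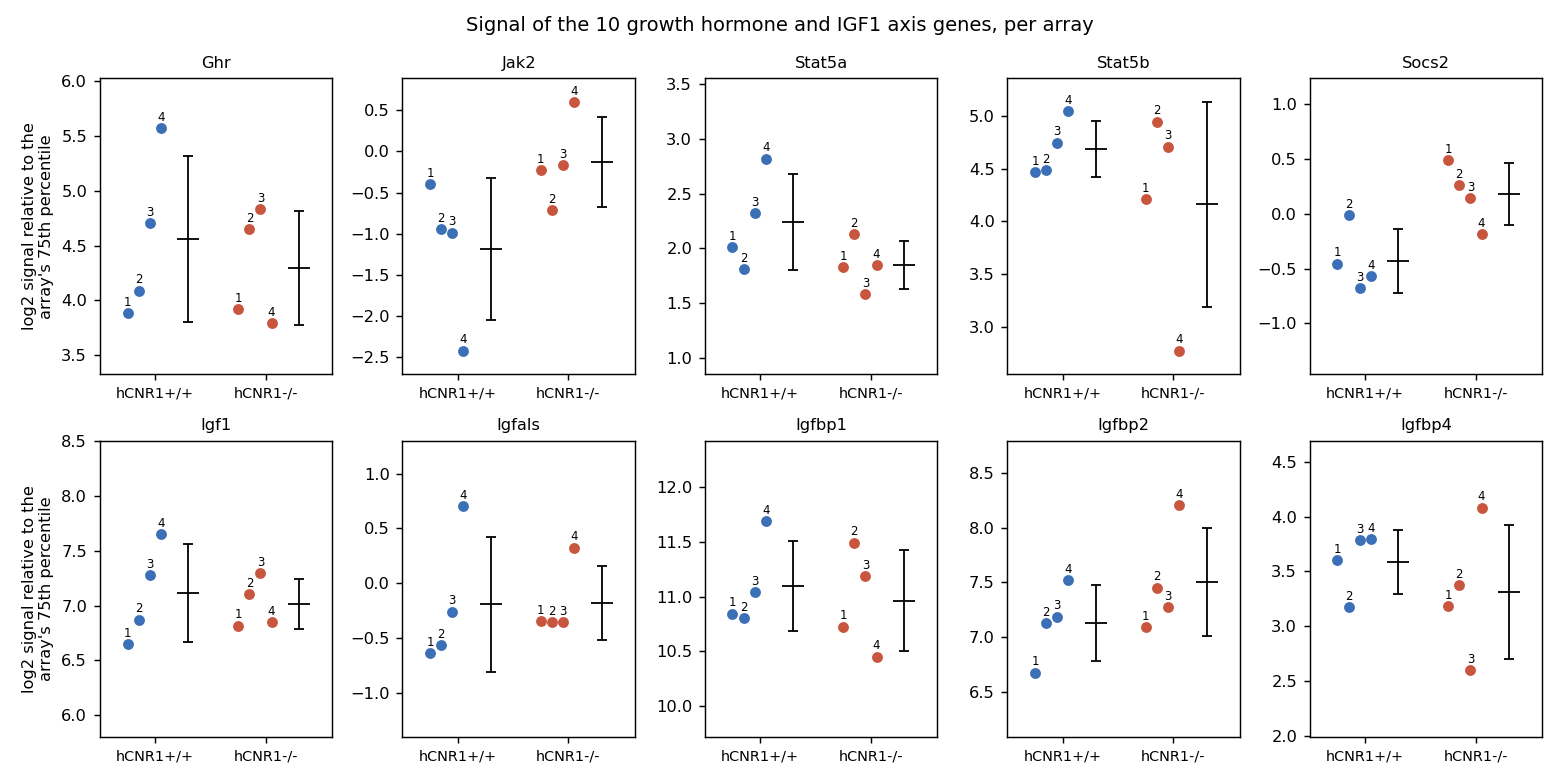
Level of the 10 axis genes on each array, as log2 signal relative to the array's 75th percentile (y axis, its own range for each gene). Blue points are hCNR1+/+ and red points hCNR1-/- arrays, numbered by replicate, and the bars give the mean ± SD of 4 arrays. In each of the 10 panels the groups overlap, and hCNR1+/+ replicate 4 is the highest of its group for 8 of 10 genes.

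The receptor gene Ghr, whose product binds growth hormone, overlapped between the genotypes. Log2 levels were 3.89, 4.09, 4.70 and 5.58 in hCNR1+/+ and 3.92, 4.65, 4.83 and 3.79 in hCNR1-/-, in the order of replicates 1 to 4, as for all genes below. The widest gap was between the arrays numbered 4, of which the hCNR1+/+ one was the highest of all 8 and the hCNR1-/- one the lowest. The log2 fold change was -0.27 (SE 0.40, limma adjusted p = 0.731), and the interval of the fold change, 0.445 to 1.55, included both a fall by more than a factor of 2 and a rise. A second, dimmer Ghr probe, from another accession, gave a log2 fold change of 0.07 (SE 0.26, n = 4 and 4, limma adjusted p = 0.895). Which transcript form of Ghr each probe reads was not tested.

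Jak2, the kinase bound to the receptor, was the one member past the fold change threshold. Log2 levels were -0.39, -0.94, -0.98 and -2.42 in hCNR1+/+ and -0.23, -0.71, -0.16 and 0.60 in hCNR1-/-. The lowest of these, hCNR1+/+ replicate 4, was the one array on which the probe was not well above background, and 3 of 4 hCNR1-/- arrays were above every hCNR1+/+ array. Jak2 was 2.08-fold higher in hCNR1-/- (95% interval 1.05 to 4.12). The log2 fold change was 1.06 (SE 0.44), with an unadjusted limma p of 0.0376 and an adjusted p of 0.201, and the exact two-sided permutation test over the 70 assignments of the arrays gave p = 0.0571. The call did not hold when hCNR1+/+ replicate 4 was left out (log2 fold change 0.65), nor without hCNR1-/- replicate 4 (0.82), hCNR1+/+ replicate 3 (1.13), hCNR1-/- replicate 1 (1.09) or hCNR1-/- replicate 3 (1.07). When the intensities were not scaled between arrays, which moved the median of all tested genes to -0.47, the log2 fold change of Jak2 was 0.50.

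The transcription factors Stat5a and Stat5b lie next to each other on 1 chromosome and carry the signal to the nucleus. Both were lower on average in hCNR1-/-, with groups that overlapped, and neither passed a threshold. Stat5a had log2 levels of 2.01, 1.81, 2.32 and 2.82 in hCNR1+/+ and 1.83, 2.13, 1.58 and 1.85 in hCNR1-/-. Only replicate 3 of hCNR1-/- was below every hCNR1+/+ array, and the log2 fold change was -0.39 (SE 0.26, limma adjusted p = 0.414).

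Stat5b, the form through which growth hormone mainly acts in hepatocytes, had log2 levels of 4.47, 4.49, 4.75 and 5.04 in hCNR1+/+ and 4.21, 4.95, 4.71 and 2.77 in hCNR1-/-. The hCNR1-/- replicate 4 was far below the other 7 arrays, which lay close together. Its log2 fold change was -0.53 (SE 0.44, limma adjusted p = 0.517) with all arrays and -0.06 without hCNR1-/- replicate 4. A second Stat5b probe gave -0.30 (SE 0.32, limma adjusted p = 0.606).

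**Figure D2:**
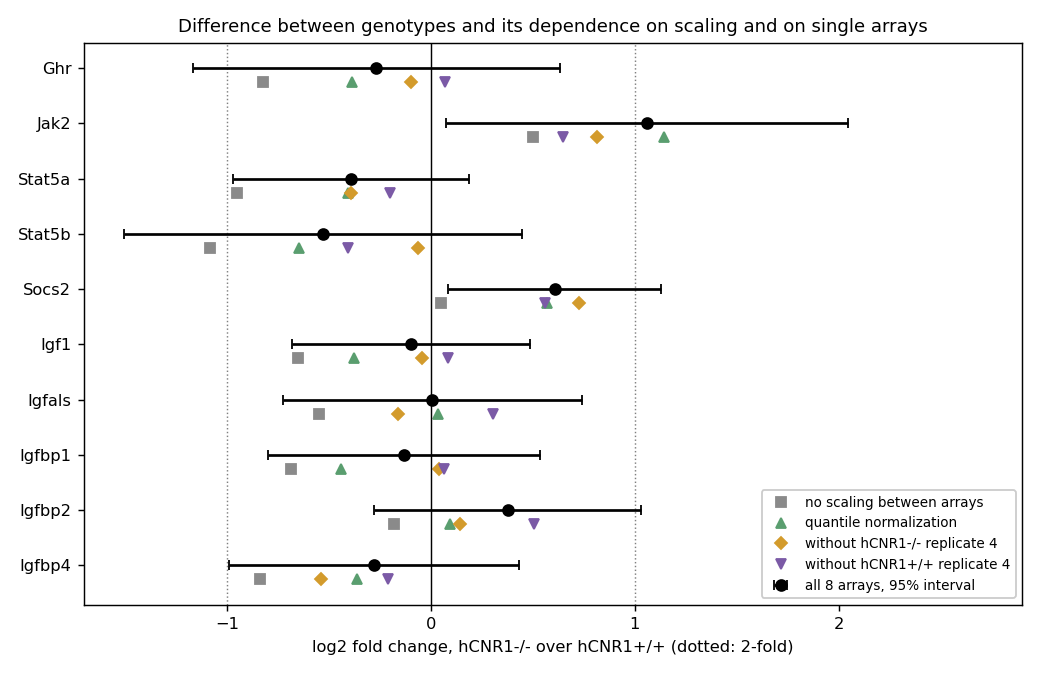
Log2 fold change of each axis gene, hCNR1-/- over hCNR1+/+ (x axis), with all 8 arrays (black, 95% interval) and, in colour below it, without scaling, with quantile normalization and without replicate 4 of either genotype. Only the intervals of Jak2 and Socs2 lie above 0, and without scaling between arrays all values move to the left, Socs2 to 0.05 and Stat5b to -1.08.

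Socs2 is induced by STAT5 and encodes the adaptor that sends the growth hormone receptor to degradation. On its brightest probe log2 levels were -0.45, -0.01, -0.68 and -0.57 in hCNR1+/+ and 0.49, 0.26, 0.14 and -0.19 in hCNR1-/-. Of the hCNR1-/- arrays 3 were above all hCNR1+/+ arrays, and replicate 4 lay within their range. Socs2 was 1.52-fold higher in hCNR1-/- (95% interval 1.06 to 2.19), with a log2 fold change of 0.61 (SE 0.23), an unadjusted limma p of 0.0272, an adjusted p of 0.170 and an exact permutation p of 0.0571. Without hCNR1-/- replicate 4, the dimmest array, the log2 fold change was 0.73 with a limma adjusted p of 0.0490, and with array weights it was 0.75 with an adjusted p of 0.0173. These settings called 13.0% and 25.5% of all tested genes at that threshold, against 4.24% with all arrays weighted equally. Without scaling between arrays it was 0.05 with an adjusted p of 0.982.

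The other Socs2 probes did not give a single picture. The probe printed on 10 spots had log2 levels of -0.70, -0.44, -0.96 and -1.85 in hCNR1+/+ and 0.12, -0.17, -0.43 and -0.04 in hCNR1-/-. The groups did not overlap, although the lowest hCNR1-/- array and the highest hCNR1+/+ array were almost equal. Its log2 fold change was 0.86 (SE 0.31) with a limma adjusted p of 0.134 over the 19985 probes tested, and an exact permutation p of 0.0286, the smallest that 4 against 4 arrays can give. The third probe had a log2 fold change of 0.00 (SE 0.50, limma adjusted p = 0.999), and on it hCNR1+/+ replicate 2 was higher than all the other arrays. The mean of the 3 probes gave 0.49 with an adjusted p of 0.426.

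Igf1, which encodes the main hormone that the liver releases on growth hormone, did not differ beyond the spread between arrays. Log2 levels were 6.65, 6.87, 7.28 and 7.66 in hCNR1+/+ and 6.82, 7.10, 7.30 and 6.85 in hCNR1-/-. All 4 hCNR1-/- arrays lay within the hCNR1+/+ range. The log2 fold change was -0.10 (SE 0.26, limma adjusted p = 0.859), and the 95% interval of the fold change was 0.624 to 1.40.

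The 4 Igf1 probes share 1 accession and fell into a bright pair and a dim pair. The second bright probe gave a log2 fold change of -0.05 (SE 0.26, limma adjusted p = 0.926). The better measured dim probe was above background on 3 of 4 arrays of each genotype, with log2 levels of -1.48, -1.20, -2.38 and -4.19 in hCNR1+/+ and -0.82, -1.17, 0.26 and -1.88 in hCNR1-/-, a log2 fold change of 1.41 (SE 0.66, limma adjusted p = 0.239). On this probe both replicates numbered 4 were the lowest of their genotype. The remaining probe was above background on 1 hCNR1+/+ and 2 hCNR1-/- arrays and was not tested. Averaging all 4 probes gave 0.52 for Igf1 with a limma adjusted p of 0.168, a direction opposite to that of the bright pair.

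**Figure D3:**
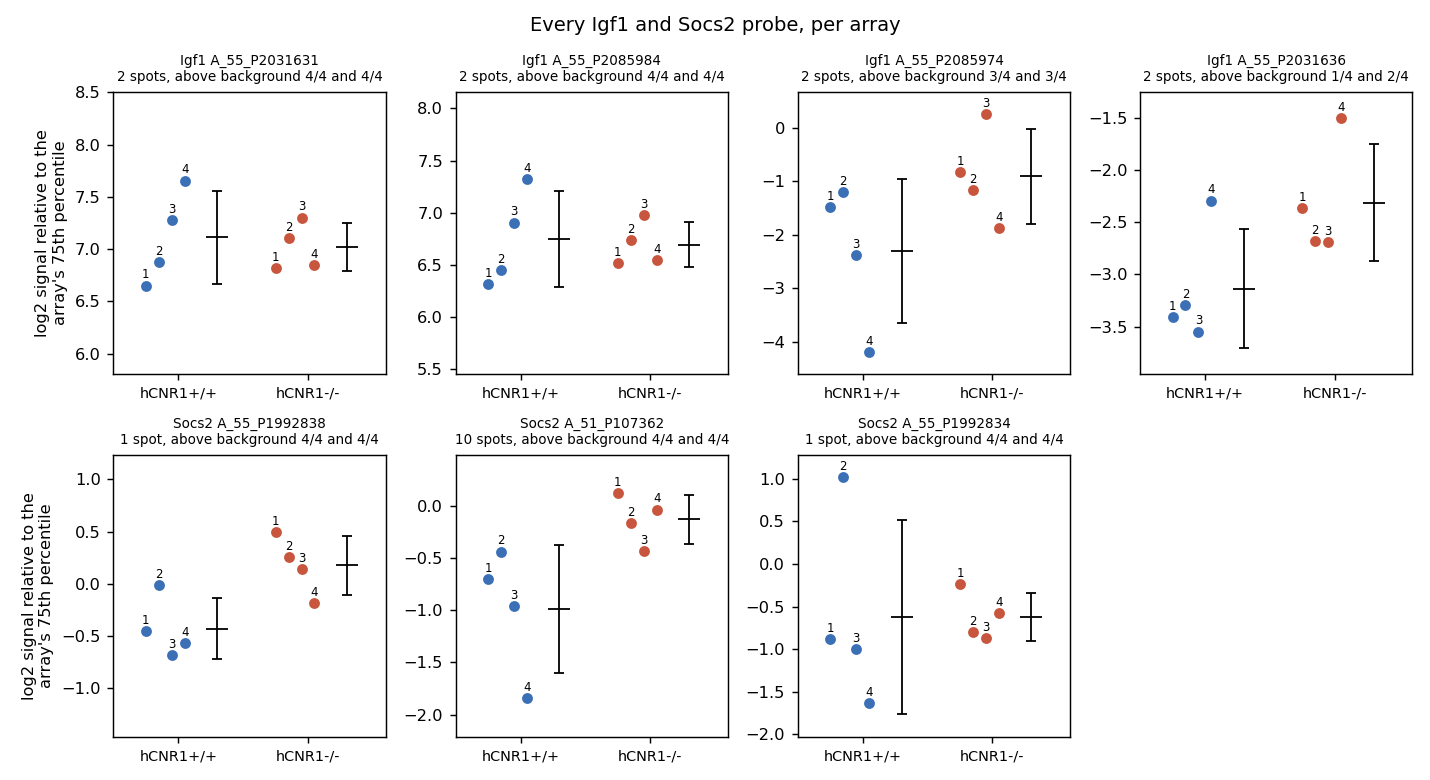
Log2 signal relative to the array's 75th percentile (y axis, its own range for each panel) of the 4 Igf1 probes (top row, brightest first) and the 3 Socs2 probes (bottom row), with the number of spots and of arrays above background in hCNR1+/+ and hCNR1-/-. Points are arrays numbered by replicate and bars are mean ± SD of 4 arrays. The bright Igf1 pair overlaps fully between genotypes, and of the Socs2 probes the one on 10 spots shows no overlap and the third shows no difference in means.

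Igfals encodes the acid-labile subunit, which holds IGF1 in its long-lived circulating complex. Log2 levels were -0.64, -0.57, -0.26 and 0.70 in hCNR1+/+ and -0.35, -0.35, -0.35 and 0.32 in hCNR1-/-. Replicate 4 was the highest in both genotypes, and the other hCNR1-/- arrays were nearly equal. With a log2 fold change of 0.01 (SE 0.33, limma adjusted p = 0.992), the 95% interval of the fold change ran from 0.606 to 1.67.

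Of the 9 members with promoter windows, Socs2 not being among them, Igfals was the one whose windows held the motif TTCNNNGAA, the core that STAT5 dimers are known to bind. The windows came from RefSeq (assembly GRCm38.p6), each from 250 bases before to 50 bases after an annotated start, and these members had 15 of them. The motif reads the same on both strands. It was found in 2 of the 15 member windows and in 2726 of all 32851 windows, or 8.30%. Both matches are shown because they are the only ones among the members, in capitals within 30 bases of the plus strand. The first is at chr17:24877598-24877627, with the motif starting 236 bases before 1 annotated start, and the second at chr17:24878163-24878192, 58 bases before another.
Igfals, upstream start: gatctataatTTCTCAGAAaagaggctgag
Igfals, downstream start: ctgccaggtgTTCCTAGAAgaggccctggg
A match is a run of letters in a window and not a measured binding site.

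The binding proteins differ in how they are controlled, with Igfbp1 falling under insulin, Igfbp2 rising on fasting and Igfbp4 holding back local IGF action. Igfbp1 had log2 levels of 10.84, 10.81, 11.04 and 11.69 in hCNR1+/+ and 10.72, 11.49, 11.19 and 10.45 in hCNR1-/-. Of the hCNR1-/- arrays 2 lay within the hCNR1+/+ range and 2 below it, and the log2 fold change was -0.13 (SE 0.30, limma adjusted p = 0.828).

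Igfbp2 had log2 levels of 6.68, 7.13, 7.19 and 7.52 in hCNR1+/+ and 7.09, 7.45, 7.27 and 8.20 in hCNR1-/-. Only hCNR1-/- replicate 4 was above the hCNR1+/+ range. The log2 fold change was 0.38 (SE 0.29, limma adjusted p = 0.486), 0.14 without that array and -0.18 without scaling, and a second probe also gave 0.38 (SE 0.28, adjusted p = 0.454).

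Igfbp4 had log2 levels of 3.60, 3.17, 3.78 and 3.80 in hCNR1+/+ and 3.18, 3.38, 2.60 and 4.08 in hCNR1-/-. The hCNR1-/- arrays held both the lowest and the highest of the 8 values. Igfbp4 had a log2 fold change of -0.28 (SE 0.32, limma adjusted p = 0.643), which became -0.54 without hCNR1-/- replicate 4.

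Across the members the arrays numbered 4 stood at the ends of their groups. The hCNR1+/+ replicate 4 was the highest of its group for 8 of 10 members and the lowest for 1, Jak2. The hCNR1-/- replicate 4 was the highest for 4 members (Jak2, Igfals, Igfbp2 and Igfbp4) and the lowest for 4 (Ghr, Stat5b, Socs2 and Igfbp1). These were also the dimmest arrays of their groups. Over the 8 arrays, the scaled level of Igfbp2 was lower on brighter arrays (Pearson r = -0.95, exact permutation p = 0.000322, adjusted over the 10 members 0.00322, Spearman rho = -0.93, exact permutation p = 0.00223, adjusted 0.0223), with r = -0.78 without both arrays numbered 4. Igfals had r = -0.77 and rho = -0.74 (exact permutation p = 0.0317 and 0.0458, adjusted 0.159 and 0.229) and r = -0.62 without those arrays. For the other 8 members r ran from -0.56 to 0.62, with adjusted permutation p of 0.394 or more, and from -0.95 to 0.22 without those arrays, with Stat5b turning from 0.62 to -0.81. These values pool the genotypes, so a difference between the genotypes enters them. As deviations from the genotype means, r was -0.94 for Igfbp2, -0.84 for Igfals, -0.78 for Igfbp4 and 0.75 for Socs2. The other members then ran from -0.49 to 0.55, and these values were not tested. Since the scaling subtracts the brightness, the measures share a term. The permutation p-values do not account for that term, so they cannot tell a relation with brightness from the subtraction. Before scaling, the deviations of all 10 members rose with brightness, with r from 0.70 for Ghr to 0.98 for Socs2, and 0.92 for Igfbp2. The 4 arrays of a genotype are too few for a value within 1 genotype.

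The wider signalling pathway was read from a list of 25 other JAK-STAT genes, of which 21 were tested. Of these, 11 were lower and 10 higher in hCNR1-/-, with a median log2 fold change of -0.02 against 0.08 over all tested genes. At a fold change above 2 with p below 0.05, 1 was lower, Socs3, against 3.75% of all tested genes. By the same threshold 0 were higher, against 4.78%, and 0 passed an adjusted p below 0.05, against 4.24%. The groups did not overlap for 5 of the 21, against 17.8% of all tested genes. Socs3, the cytokine-induced inhibitor of JAK kinases, fell by 1.35 on the log2 scale (SE 0.51, limma adjusted p = 0.165). Log2 levels were 3.11, 3.17, 5.56 and 4.50 in hCNR1+/+ and 2.35, 2.96, 3.001 and 2.66 in hCNR1-/-, so the groups did not overlap, and replicate 3 was the highest hCNR1+/+ array by a wide margin. Without that array the log2 fold change was -0.85 and the call was lost, as it was without hCNR1+/+ replicate 4 (-1.21), hCNR1-/- replicate 1 (-1.21) or hCNR1-/- replicate 4 (-1.32).

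Among the JAK-STAT genes not called, Stat3, the factor downstream of interleukin 6, had the largest log2 fold change, 0.87 (SE 0.26, limma adjusted p = 0.0948), with no overlap between groups on its brightest probe. The mean over the 2 Stat3 probes was -0.03. Such means take in probes that did not pass the filter as well, and how well the second probe was measured is not given here. The leptin receptor gene Lepr had a log2 fold change of 0.85 (limma adjusted p = 0.268), with no overlap between groups. Its level was 6.68 on hCNR1-/- replicate 4 against 4.68 to 5.0 on the other hCNR1-/- arrays. Without that replicate its log2 fold change was 0.38. Stat6, a factor of interleukin 4 signalling, had a log2 fold change of -0.76 (limma adjusted p = 0.307). Cish, a further SOCS family gene that STAT5 is known to induce, had 0.07 (limma adjusted p = 0.887), and was named after its value had been seen.

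Of the JAK-STAT list, 19 genes had 25 promoter windows, and 5 windows of 4 genes, Bcl6, Cish, Prlr and Socs3, held the motif. Those of the SOCS family are shown for comparison with Igfals, in the direction of the gene, with capitals marking the motif. The Cish stretch at chr9:107296649-107296678 holds 2 copies, the first beginning at the annotated start and the second after it, and the Socs3 stretch at chr11:117969501-117969530, on the minus strand, holds 1 copy that starts 154 bases before the start.
Cish: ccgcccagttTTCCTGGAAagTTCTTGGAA
Socs3: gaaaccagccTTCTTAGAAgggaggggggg

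Of 20 other genes of the IGF system, 8 were tested and 10 were above background on 0 arrays, among them Igf2, Igf1r, Igfbp3, Igfbp5 and Igfbp7, named here after their values had been seen. Of the 8, 4 were lower and 4 higher, with a median log2 fold change of -0.04, and 1, Irs1, was called higher by both thresholds. Of all tested genes, 4.78% were called higher at a fold change above 2, and 4.24% passed the adjusted p in either direction. Irs1, the adaptor that couples the insulin and IGF1 receptors to PI3 kinase, had log2 levels of -0.53, -0.47, -0.52 and -1.20 in hCNR1+/+ and 0.95, 0.37, 0.68 and 0.24 in hCNR1-/-. All 4 hCNR1-/- arrays were above all 4 hCNR1+/+ arrays. The difference was 1.24 on the log2 scale (SE 0.25, limma adjusted p = 0.0329, exact permutation p = 0.0286).

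Leaving out any array other than hCNR1-/- replicate 4 took the adjusted p of Irs1 above 0.05. It was then 0.0631, 0.0649, 0.102 and 0.0577 without hCNR1+/+ replicates 1, 2, 3 and 4 and 0.0924, 0.0690 and 0.0933 without hCNR1-/- replicates 1, 2 and 3, and the log2 fold change stayed between 1.07 and 1.35. Without scaling between arrays it was 0.68 with an adjusted p of 0.838. The adaptor gene Grb10 had a log2 fold change of -1.62 (SE 1.13, limma adjusted p = 0.439), with 3.98 on hCNR1+/+ replicate 3 and values between -2.47 and -1.12 on the other 7 arrays. Igf2bp2, which encodes an RNA-binding protein, had -0.82 (adjusted p = 0.221) and the protease gene Htra1 -0.56 (adjusted p = 0.433).

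**Figure D4:**
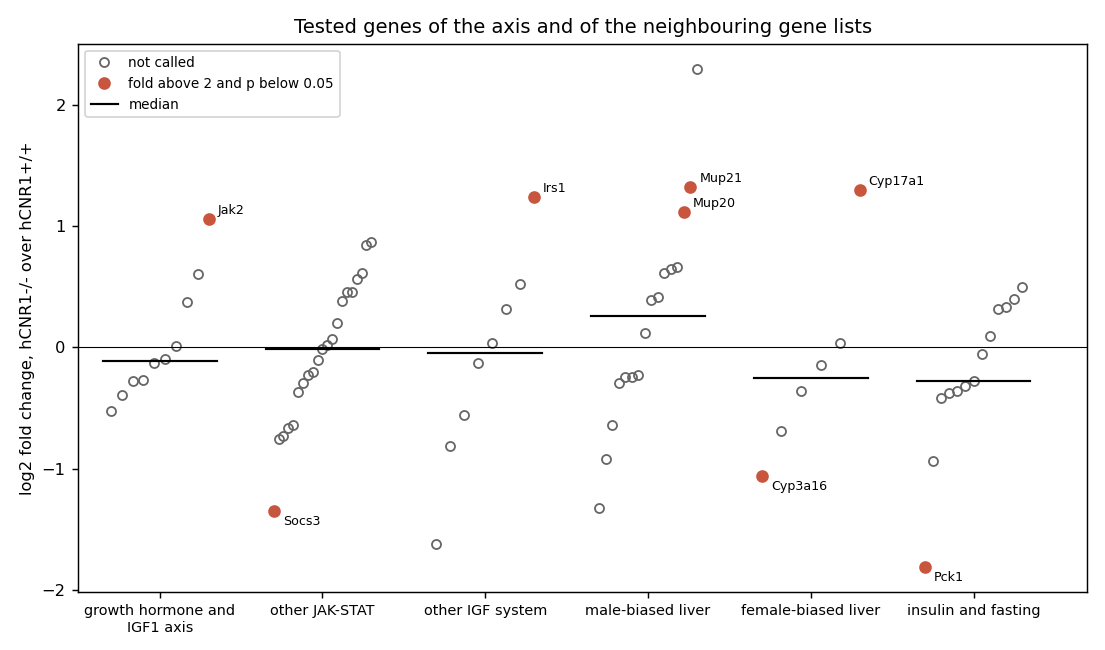
Log2 fold change, hCNR1-/- over hCNR1+/+ (y axis), of every tested gene of the axis and of 5 neighbouring lists (x axis), each point a gene, with the median of each list as a line. Filled points passed a fold change above 2 with p below 0.05, 1 in the axis (Jak2) and 7 in the other lists, 3 of them lower and 4 higher.

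Genes whose sex bias in the liver is known to depend on growth hormone were described by counts as well. Of 20 male-biased genes 16 were tested, 7 were lower and 9 higher in these male mice, and the median log2 fold change was 0.26. At an adjusted p below 0.05, 0 were called, against 4.24% of all tested genes. At a fold change above 2 with p below 0.05, 2 were called higher, Mup20 and Mup21, against 4.78%. By that threshold 0 were called lower, against 3.75%. Mup20 and Mup21 encode major urinary proteins, carriers of male pheromones, from a family of genes related in sequence. Whether their probes read each other's transcripts was not tested.

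Mup20, also called darcin, had log2 levels of 10.21, 10.17, 10.74 and 9.18 in hCNR1+/+ and 10.72, 11.37, 11.22 and 11.45 in hCNR1-/-, a log2 fold change of 1.12 (SE 0.34, limma adjusted p = 0.0928). Mup21 had 6.47, 6.65, 6.44 and 5.21 in hCNR1+/+ and 7.01, 7.34, 8.05 and 7.65 in hCNR1-/-, a log2 fold change of 1.32 (SE 0.36, limma adjusted p = 0.0701). In both genes hCNR1+/+ replicate 4 was the lowest array. Without it the log2 fold changes were 0.82 and 0.99, below the 2-fold threshold. Mup20 was also not called in other settings, among them no scaling (0.56), quantile normalization (0.71), array weights (0.72) and the mean of its probes (0.92). The call of Mup21 was lost without scaling (0.76) and held with quantile normalization (1.06).

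Mup3 had the largest value of the list, 2.30 (SE 1.48, limma adjusted p = 0.404), which rested on hCNR1+/+ replicate 4 at 1.51 while the other 7 arrays lay between 8.59 and 9.60. The fatty acid elongase gene Elovl3 had -1.32 (limma adjusted p = 0.238) and the peroxisomal Nudt7 -0.92 (limma adjusted p = 0.245), and neither passed a threshold.

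Of 20 female-biased genes 6 were tested. Of the others, 10 were above background on 0 arrays, 2 had no named probe and 2 were above background on too few arrays. Cyp3a16, a cytochrome P450 with close paralogs, fell by 1.06 on the log2 scale (SE 0.37, limma adjusted p = 0.136), and Cyp17a1, which encodes a steroid hydroxylase, was higher by 1.30 (SE 0.52, adjusted p = 0.189). The call of Cyp3a16 was lost without hCNR1+/+ replicate 1 (-0.96) or 2 (-0.81) and without hCNR1-/- replicate 1 (-0.91) or 4 (-0.89). Cyp17a1 had log2 levels of 4.71, 4.24, 4.81 and 5.34 in hCNR1+/+ and 5.54, 5.67, 5.28 and 7.79 in hCNR1-/-, and without the last of these, replicate 4, its log2 fold change was 0.72 and the call was lost, as it was without hCNR1+/+ replicate 1 (1.27), 2 (1.12) or 3 (1.31). The other 4 tested genes ranged from -0.69 for Cyp2a4 (limma adjusted p = 0.472) to values near 0, with -0.36 for Nipal1 and -0.14 for Fmo1.

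Insulin and fasting also control Igfbp1 and Igfbp2, so a list of 16 genes of that response was read, of which 13 were tested. There were 8 lower and 5 higher, with a median log2 fold change of -0.28. At a fold change above 2 with p below 0.05, 1 was called lower, Pck1, against 3.75% of all tested genes. Pck1, the gene of the rate-limiting enzyme of gluconeogenesis, had log2 levels of 4.99, 4.46, 5.31 and 6.17 in hCNR1+/+ and 3.01, 4.08, 3.999 and 2.62 in hCNR1-/-. No hCNR1-/- array reached the lowest hCNR1+/+ array, and Pck1 fell by 1.81 on the log2 scale (SE 0.44, limma adjusted p = 0.0515). The call of Pck1 at a fold change above 2 held without any 1 array and without scaling between arrays. Its limma adjusted p lay on both sides of 0.05, at 0.0498 with quantile normalization and 0.259 without scaling. The fatty acid oxidation gene Cpt1a had -0.94 (limma adjusted p = 0.380), and the fasting hormone gene Fgf21 had 0.50 (limma adjusted p = 0.406). Cpt1a was 0.22 on hCNR1-/- replicate 4 against 2.55 to 3.06 on the other hCNR1-/- arrays.

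Across the 5 lists, 7 of 63 tested genes (11.1%) were called at a fold change above 2 in either direction, against 8.53% of all tested genes, namely Socs3, Irs1, Mup20, Mup21, Cyp3a16, Cyp17a1 and Pck1. The count was 4 without hCNR1+/+ replicate 4 and 4 without hCNR1-/- replicate 4.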

How the data were processed

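Isolated hepatocytes in 4 hCNR1+/+ and 4 hCNR1-/- samples were measured on 1-colour (Cy3) arrays. The authors deposited, per spot, the intensity written by Feature Extraction 12.0.3.1 after background correction within the array, not scaled between arrays. The score that the authors deposited beside it differed by at most 0.005 from a z-score of log intensities and served as an alternative.

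Outlier-flagged spots were removed, intensities were taken to log2, each array was centred on its 75th percentile over 59305 non-control spots, and spots of a probe were averaged. Accessions were matched to RefSeq names (28331 of 55681 probes). A gene with 1 or more probes above background (by the flag of 50% of their spots) on 4 of 8 arrays or more was tested on the brightest probe with lmFit and eBayes of limma 3.58.1 in R 4.3.3, two-sided, with Benjamini-Hochberg adjustment over 11072 genes. Values of other probes came from a fit of 19985 probes. Single genes had an exact permutation test. The number of arrays limits the precision.

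The members and lists were chosen with earlier results of these data known. Named were all members and, of each other list, every called gene and the 3 largest changes not called, of which 1 gene is not reported here. Of the marker lists not described in the report, 0 genes passed either threshold, with 7 endothelial, 2 stellate, 2 lymphocyte, 1 neutrophil, 2 cholangiocyte and 10 isolation-response genes tested. Without overlap between groups were Cd3e (log2 fold change 0.90, limma adjusted p = 0.153) and Elane (0.70, adjusted p = 0.131), named after their values had been seen. The fit was tested on simulated data. The alternatives were other scalings, filters, probe rules, array weights, a replicate block and leaving out arrays. For normexp, median spot signals were used. Correlations of same-numbered arrays, as deviations from the genotype means, were 0.21, -0.16, -0.05 and 0.02, so the numbers were not taken as pairs.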

Additional observations from a re-analysis of the deposited data

Results flagged for a closer look

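The 82 groups of 4 arrays examined were every probe of the members, the other named genes and the brightness of the arrays, each by genotype. In 8 of them, 1 array lay farther from its nearest neighbour, relative to the range of the group, than Dixon's 95% limit allows. Chance alone gives about 1 in 20 for groups not picked by their values. The other named genes were picked from these same data, as called or as the largest changes not called. That rate therefore does not hold for the 82 groups. Of the members, only Igfals was past the limit. On hCNR1-/- replicate 4, Igfals was 0.32 while the other hCNR1-/- arrays were all near -0.35, Lepr was 6.68 against at most 5.0, and Cyp17a1 was 7.79 against 5.28 to 5.67. On hCNR1+/+ replicate 4, Irs1 was -1.20 against -0.53 to -0.47, Mup21 was 5.21 against 6.44 to 6.65, Mup3 was 1.51 against 8.59 to 9.15, and Fmo1 was 0.60 against -1.49 to -1.23. On hCNR1+/+ replicate 3, Grb10 was 3.98 against -1.86 to -1.21. All but Grb10 lay on the dimmest array of their genotype.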

How the results depend on the processing

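Of 22 alternatives, Socs2 stayed above 0 in 22 (0.05 to 0.75), and Stat5a and Igfbp4 stayed below 0 in 22. The call of Jak2 at a fold change above 2 was lost (0 members called) without scaling, with median scaling, the deposited z-scores, normexp and quantile, no filter on dim probes, array weights and without replicate 4 of both genotypes, and Jak2 was not tested where all 8 arrays had to be above background. With the replicate block 0 members were called, Jak2 having a limma adjusted p of 0.296, and 0 genes of the other lists at an adjusted p below 0.05, as were 0 of all 11072 genes. Leaving out 1 array gave 0 to 1 members at either threshold, and 1 member, Socs2, had an adjusted p below 0.05 with array weights, as did 25.5% of all genes. The median of the members was -0.67 without scaling, where the median of all genes was -0.47, and -0.23 to 0.08 without 1 array.

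Igfals turned to -0.55 without scaling, -0.038 with median scaling, -0.11 in the z-scores and -0.012 with normexp and quantile, and ran from -0.16 to 0.31 without 1 array. Igfbp2 turned to -0.18 without scaling. Igf1 turned to 0.52 as the mean of its probes. With array weights Ghr was 0.025 and Igfbp1 0.15. Without replicate 4 of both genotypes Ghr was 0.24, Igf1 0.14, Igfbp1 0.24 and Stat5b 0.055. Leaving out 1 array gave -0.49 to 0.071 for Ghr, -0.25 to 0.083 for Igf1 and -0.31 to 0.066 for Igfbp1.

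In the other lists, the calls at a fold change above 2 numbered 3 with normexp and quantile, 4 without replicate 4 of both genotypes and 4 to 8 without 1 array. Those at an adjusted p below 0.05, 1 in the report, numbered 0 under median scaling, no scaling, no filter and the z-scores, 2 with quantile normalization, normexp and the stricter filter, 3 with each probe on its own, 9 with array weights and 9 without replicate 4 of both (where 25.5% and 19.7% of all genes passed, against 4.24%), and 0 to 2 without 1 array. Chosen after seeing the data, leaving out hCNR1-/- replicate 4 without scaling gave 0 members and 3 list genes called and -0.28 for Igfals. The same with quantile normalization gave 0 members, 3 list genes at either threshold, -0.12 for Igfals and -0.18 for Igfbp2. The array weights were lowest for replicate 4, at 0.396 in hCNR1+/+ and 0.0994 in hCNR1-/-, and the causes of the changes were not tested. The probes of Jak2, Socs2, Igfals and the second Igf1 pair were dim, and the part of the background in their values was not tested.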
